A study of Mus musculus with 8 samples.

Results

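The genes described here are the cytochrome P450 genes of families 1 to 4 together with Por, the gene of their electron donor. They were chosen by name: every row of the deposited table named Cyp, a family digit from 1 to 4, a subfamily letter and a number, plus Por, with at least 10 reads in 4 or more of the 8 libraries used. The name matched 87 of 30266 rows, and 70 of them passed the read minimum: 69 P450 genes in 19 subfamilies and Por. Of these, 8 carry a name ending in ps and are pseudogenes. The minimum was reached in all 8 libraries by 62 members, and 1 member, Cyp2t4, reached it in PBS libraries only, so it had to be lower after treatment.

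Whole liver of male mice was sequenced. Every mouse carried the label Mdr2-/- (Mdr2 is an earlier symbol for Abcb4, which encodes the phosphatidylcholine transporter of the bile canaliculus; its loss gives a sclerosing bile duct disease) and was 8 weeks old. One group received PBS, the vehicle, and the other recombinant FGF21 (rFGF21, a hormone of the FGF family) at 1.0 mg/kg, and livers were taken after 4 h. No group without the Mdr2 deletion was included, so each value below is from a liver with that label. Whether each sample is a separate animal is not in the labels, so a p-value here reflects only how far these samples varied, which may be technical.

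P450 enzymes of families 1 to 4 are haem proteins that sit mainly in the membrane of the endoplasmic reticulum and insert an oxygen atom into drugs, toxins, steroids and fatty acids, using electrons that Por passes on from NADPH. The hepatocyte makes most of them, many only in the cells around the central vein. Their genes are known to be induced through nuclear and xenobiotic receptors: Nr1i3 (CAR) for Cyp2b genes, Nr1i2 (PXR) for Cyp3a genes, the Ah receptor for Cyp1 genes and Ppara for Cyp4a genes. Several are set by growth hormone and differ between male and female mice.

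Total reads ran from 62756328 to 73313449 per library. Libraries are named by group and the number in the table's column (PBS 1, 2, 4 and 5; rFGF21 1, 2, 3 and 5). Reads per gene are given as CPM, reads scaled to a library total of 1000000 with TMM factors. Abcb4 was between 337 and 424 CPM in PBS libraries and between 372 and 441 CPM in rFGF21 libraries, so its summed reads give no check of the Mdr2-/- label. The protocol text names another tissue, retina. The photoreceptor genes Crx and Rcvrn were at 0 in every library and the 9 hepatocyte markers summed to between 58500 and 81100 CPM, so the liver markers were present and those of retina at 0. PBS 4 had the smallest scaling factor (0.919) and rFGF21 5 the largest (1.092). PBS 4 held the highest CPM of all 8 libraries for 28 of the 70 members, and rFGF21 5 the lowest for 24.

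P450 genes were abundant in these livers, and their levels spanned 4 orders of magnitude. Levels are compared between genes only as RPKM, computed here as reads per 1000 bases of exon, scaled to a library total of 1000000 reads. Mean RPKM over the 8 libraries ran from 0.0752 (Cyp2t4) to 1273 (Cyp3a11), with 18 members at 100 or more and 12 under 1. P450 members took between 1.45% and 1.93% of all reads of a library. Cyp3a11, the main drug-oxidising Cyp3a enzyme of mouse liver and a known PXR target, alone made 21.4% of the summed member RPKM. Its RPKM was 1443, 1147, 1186 and 1388 in PBS libraries and 995.7, 1586, 1182 and 1257 in rFGF21 libraries, with the highest and the lowest library both treated. Next came Cyp2e1, which oxidises ethanol and paracetamol (970 ± 202.5 RPKM in PBS, SD, n = 4), Cyp2a5, the coumarin 7-hydroxylase (504 ± 192), Cyp2d9, a male-predominant steroid hydroxylase (424 ± 70.25), Cyp2f2, which activates naphthalene (404 ± 36.75), and Cyp2d10 (381 ± 48.2). Por stood at 114 ± 27.6 RPKM in PBS.

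**Figure D1:**
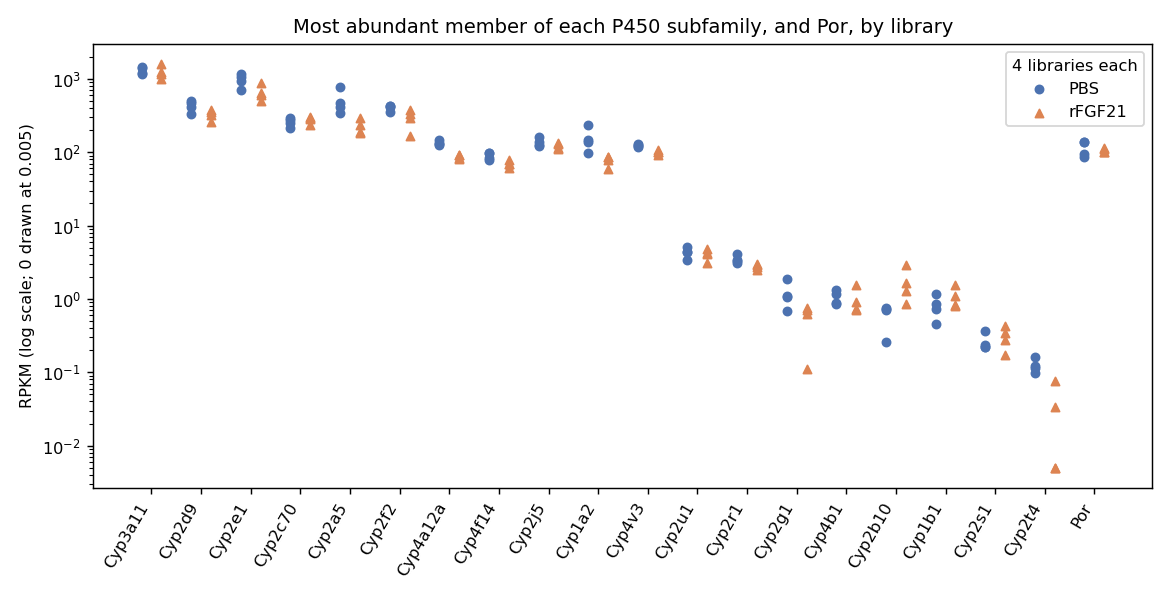
RPKM (log axis; a value of 0 is drawn at 0.005) of the most abundant member of each P450 subfamily and of Por, with 1 point per library, PBS as circles and rFGF21 as triangles. Cyp3a11 lies between 995.7 and 1586 RPKM, Cyp2a5, Cyp4a12a and Cyp1a2 have all 4 rFGF21 libraries below all 4 PBS libraries, and the 8 genes from Cyp2u1 to Cyp2t4 lie under 10 RPKM. The same absence of overlap is seen in Cyp4v3, Cyp4f14, Cyp2r1 and Cyp2t4, which were not called. In Cyp2b10, also not called, all 4 rFGF21 libraries lie above all 4 PBS libraries.

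Summed over the P450 members, RPKM was 6667, 5743, 7084 and 6645 in PBS libraries and 5176, 5605, 5328 and 5313 after rFGF21. Every rFGF21 library lay below every PBS library, and the ratio of the means was 0.82. The same sum as TPM (RPKM rescaled to the same total over all genes in each library) was 15040 ± 874 in PBS and 13140 ± 587 after rFGF21 (SD, n = 4), a ratio of 0.873, and on that scale the groups overlapped. Whole liver was measured, so fewer cells of a type and less RNA per cell cannot be told apart here or in any result below.

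After rFGF21 at 4 h, 6 P450 genes were lower and none was higher: Cyp4a12a, Cyp2c40, Cyp4a12b, Cyp2a5, Cyp4f15 and Cyp1a2, each reduced between 1.52-fold and 2.38-fold. They lie in 5 of the 19 subfamilies and in families 1, 2 and 4. A gene is called when its adjusted p is under 0.05 in the quasi-likelihood F test of edgeR, adjusted by Benjamini-Hochberg over all 18315 tested genes, and every adjusted p below is from that test unless another tool is named. The 6 make 8.57% of the 70 members, against 2.82% of all tested genes called in either direction, 1.67% lower and 1.15% higher. DESeq2 called 15 members, 2 of them higher (Cyp2b10 and Cyp3a13), while it called 8.37% of all genes it tested. With no filter on low counts edgeR called 1 member, Cyp4a12a, and 198 genes in all, against 516 in the reported test. At an unadjusted p under 0.05, 23 members were lower and 4 higher, against 9.86% and 8.92% of all tested genes.

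The lean towards lower values reached past the called genes. The log2 fold change was below 0 in 50 of 70 members, against 49.6% of all tested genes, and the median was -0.29, against 0.0 over all tested genes. The 9 hepatocyte markers described below, none of them a P450 gene, had a median of -0.27. A lean of this size was therefore not particular to P450 genes. Among the 18 members of at least 100 RPKM, 15 were below 0, and the other 3 were Cyp2c70, Cyp2d26 and Cyp3a25. In 12 members all 4 rFGF21 libraries lay below all 4 PBS libraries (17.1%; 6.39% of all tested genes), or 11 without Cyp2t4. In 1 member, Cyp2b10, they all lay above (1.43%; 5.9% of all tested genes). With libraries scaled by total counts alone, the 6 called members were 5 lower and 1 higher, Cyp3a13 taking the place of Cyp1a2. The genes lie in clusters of related copies, so these counts are not counts of independent genes. On chromosome 4 all 11 members (Cyp2j, Cyp4a and Cyp4b genes) were below 0, on chromosome 19 11 of the 14 Cyp2c genes, on chromosome 7 10 of 13, and on chromosome 5, with Cyp3a and Por, 3 of 9.

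**Figure D2:**
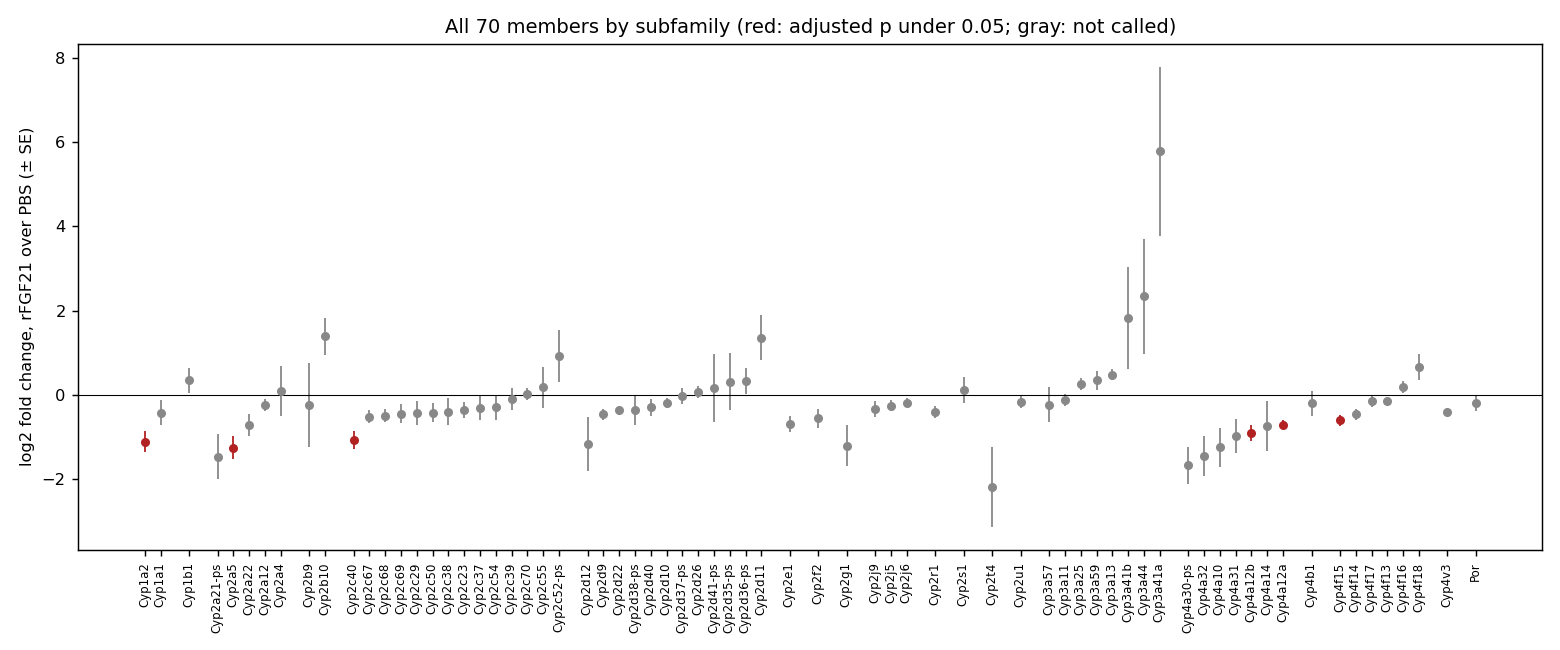
Log2 fold change, rFGF21 over PBS, with its standard error for each of the 70 members, grouped by subfamily; the 6 called members are red and the others gray. Most points lie below 0, the whole Cyp4a subfamily included, and the high points with long bars are Cyp3a41a, Cyp3a44 and Cyp3a41b.

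The Cyp4a genes encode fatty acid omega-hydroxylases, and as a subfamily they showed the clearest fall. Summed over its 7 members, Cyp4a fell from 466 ± 45.9 to 267 ± 34.9 CPM (SD, n = 4; log2 fold change -0.80 ± 0.12, SE, edgeR adjusted p = 0.00958), and in this fit of summed subfamilies 2.81% of 18265 features were called, 1.65% lower. The call held with each of the 8 libraries left out in turn (adjusted p 0.0176 to 0.0446). All 7 members were below 0, between -0.70 and -1.67, and 2 were called.

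Cyp4a12a, the main Cyp4a enzyme of male mouse liver and kidney, which turns arachidonic acid into 20-HETE, carried most of that sum. It lies on chromosome 4 at 115299046 to 115332815 on the plus strand (GRCm38). Its CPM was 326, 296, 387 and 324 in PBS libraries and 214, 206, 222 and 180 after rFGF21. Every treated library was below every control library. The change was -0.70 ± 0.11 (log2, SE; 1.62-fold lower, edgeR adjusted p = 0.0122), and of the called members only this one kept its call with each library left out in turn (adjusted p 0.0159 to 0.0462).

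Cyp4a12b, at 115411624 to 115439034 on the same strand, had 52.3, 32.1, 60.5 and 48.1 CPM in PBS and 20.5, 24.2, 32.3 and 26.7 CPM after rFGF21. The highest treated library just passed the lowest control library, so the groups overlapped. The change was -0.90 ± 0.19 (edgeR adjusted p = 0.0370), and the call was lost without PBS 1, 4 or 5 or without rFGF21 1, 2 or 5 (adjusted p up to 0.109).

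The counts of these neighbours cannot be fully separated. Of the 50-base windows in their transcripts, 48.9% of those of Cyp4a12a and 49.4% of those of Cyp4a12b also occurred in a transcript of another gene. Their coding sequences, each 1524 bases, were identical at 98.5% of positions, with 23 mismatches. A stretch of 60 bases of both (coding positions 624 to 683, counted from the A of the start codon; from the GENCODE transcripts) shows some of the bases by which a read can tell them apart. Capitals mark the 4 bases that differ.
Cyp4a12a: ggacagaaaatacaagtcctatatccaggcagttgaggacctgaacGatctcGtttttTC
Cyp4a12b: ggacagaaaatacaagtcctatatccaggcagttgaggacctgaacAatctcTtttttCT
The sum of both does not depend on how reads were split between them. It was 382 ± 49.3 CPM in PBS and 231 ± 19.6 CPM after rFGF21 (log2 fold change -0.72 ± 0.12, edgeR adjusted p = 0.0120), and of the 8 libraries left out in turn only rFGF21 1 ended its call (adjusted p = 0.0505). Sums of near-identical copies were chosen after the data had been seen, and in that fit 2.79% of features were called, 1.65% lower.

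The other Cyp4a genes were lower with a wide spread. Cyp4a10 and Cyp4a14 are the textbook Ppara-induced members of the subfamily. Cyp4a10 had 7.58, 25.2, 12.4 and 33.4 CPM in PBS and 6.73, 10.6, 12.3 and 3.62 CPM after rFGF21 (log2 fold change -1.24 ± 0.46, edgeR adjusted p = 0.180). Cyp4a14 had 7.67, 15.3, 19.8 and 23.3 CPM against 14.5, 11.1, 13 and 1.04 CPM (-0.73 ± 0.59, adjusted p = 0.552). PBS 5 was the highest and rFGF21 5 the lowest library for both, and neither passed the test. Cyp4a32 stood at -1.45 ± 0.48 (adjusted p = 0.138) and Cyp4a31 at -0.97 ± 0.40 (adjusted p = 0.219), and the sum of Cyp4a10, Cyp4a31 and Cyp4a32, which share windows, at -1.37 ± 0.44 (adjusted p = 0.129). The pseudogene Cyp4a30-ps had between 0.626 and 1.32 CPM in PBS and between 0.145 and 0.411 CPM after rFGF21, with no overlap (-1.67 ± 0.44, adjusted p = 0.0706). Summed with Cyp4a30b it was called (-1.87 ± 0.42, adjusted p = 0.0415), on 51 to 89 reads per PBS library and 11 to 30 per rFGF21 library, and each of the 8 libraries left out ended that call (adjusted p 0.0604 to 0.101).

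The Cyp4f and Cyp4v genes, omega-hydroxylases of leukotrienes, vitamin E and long fatty acids, moved less far. Cyp4f15 (chromosome 17, 32685627 to 32703352, plus strand) had 168, 144, 172 and 195 CPM in PBS and 102, 131, 121 and 92.3 CPM after rFGF21, with all treated libraries below all controls. The change was -0.60 ± 0.13 (1.52-fold lower, edgeR adjusted p = 0.0404), and the call was lost without PBS 1, 4 or 5 or without rFGF21 1, 3 or 5 (adjusted p up to 0.125). Only 2.3% of its 50-base windows occurred elsewhere, so its reads are nearly all its own. Cyp4f14, the most abundant Cyp4f gene, likewise had no overlap (189 to 259 CPM in PBS, 148 to 184 CPM after rFGF21) but did not pass the test (-0.46 ± 0.12, adjusted p = 0.0722). Cyp4v3, the mouse counterpart of the human CYP4V2 gene mutated in Bietti corneoretinal dystrophy, had 483, 446, 502 and 518 CPM in PBS and 392, 386, 376 and 321 CPM after rFGF21. Its groups did not overlap either, and it missed the threshold (-0.40 ± 0.10, adjusted p = 0.0623). Of the other Cyp4f genes, Cyp4f13 (-0.13 ± 0.08) and Cyp4f17 (-0.15 ± 0.14) lay near 0, and Cyp4f16 (0.20 ± 0.14) and Cyp4f18 (0.67 ± 0.31), a gene known from neutrophils, above 0. The Cyp4f sum was 498 ± 41.2 CPM in PBS and 376 ± 28.7 CPM after rFGF21 (-0.41 ± 0.10, adjusted p = 0.061), and Cyp4b1, a lung enzyme, had 1.05 RPKM in PBS and 0.968 RPKM after rFGF21 (-0.20 ± 0.30, adjusted p = 0.779).

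**Figure D3:**
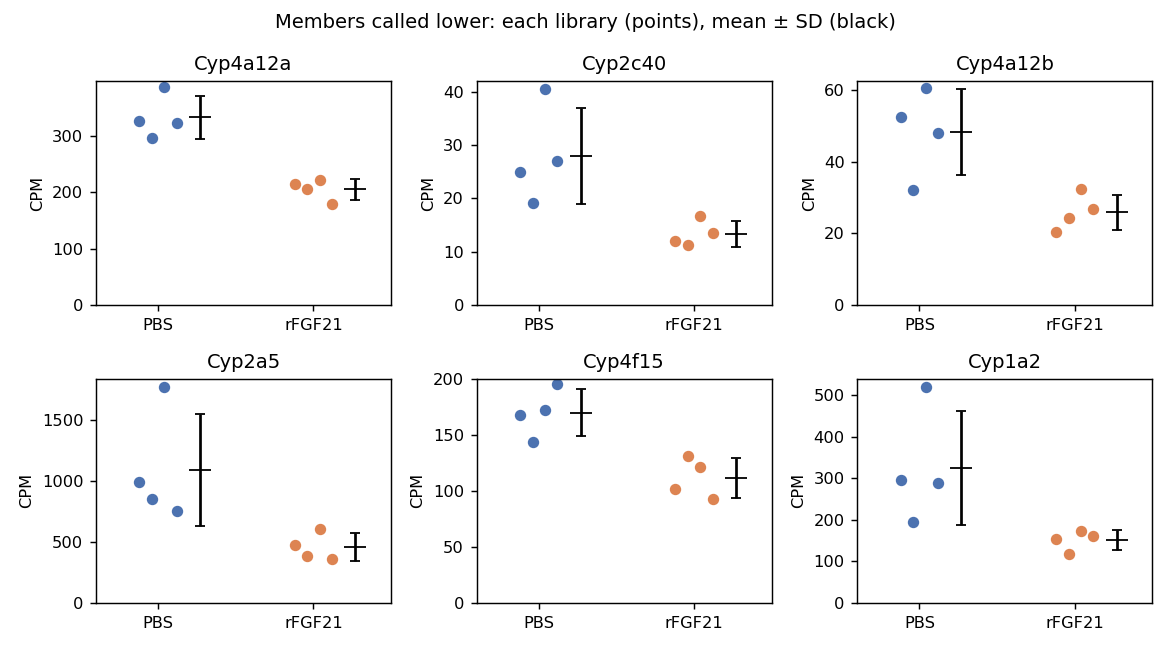
CPM of the 6 called members in each library (points) with the mean and SD of each group (black; n = 4), each panel on its own axis from 0. Of the 6 genes only Cyp4a12b has a treated library above a control library, and the highest PBS point of Cyp2c40, Cyp4a12a, Cyp4a12b, Cyp2a5 and Cyp1a2 is PBS 4.

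In family 1, Cyp1a2, which oxidises caffeine and aromatic amines and is made around the central vein, was called lower. It lies on chromosome 9 at 57676937 to 57683703 on the minus strand. Its CPM was 296, 194, 519 and 290 in PBS libraries and 153, 118, 173 and 160 after rFGF21. All treated libraries were below all controls, and PBS 4 was far above the other controls. The change was -1.11 ± 0.25 (2.15-fold lower, edgeR adjusted p = 0.0472). The call was lost without PBS 1 or 5 or without any rFGF21 library (1, 2, 3 or 5, adjusted p up to 0.125), while without PBS 4 or PBS 2 it was kept. Cyp1a1, the enzyme most strongly induced by Ah receptor ligands, was near its floor with 0.958 to 1.24 CPM in PBS and 0.648 to 1.20 CPM after rFGF21 (-0.42 ± 0.30, adjusted p = 0.487). The Cyp1a sum followed Cyp1a2 (-1.10 ± 0.25, adjusted p = 0.0462) and was lost without the same libraries (adjusted p up to 0.124). Cyp1b1, largely a gene of non-hepatocytes, stood at 4.81 ± 1.79 CPM in PBS and 6.13 ± 2.12 CPM after rFGF21 (SD, n = 4; 0.35 ± 0.30, adjusted p = 0.579). The Ah receptor gene itself had 23.0 to 26.0 CPM in PBS and 23.0 to 29.4 CPM after rFGF21 (0.07 ± 0.10, adjusted p = 0.749), and of 5 other Ah receptor targets tested none was called, nor did any have an unadjusted p under 0.05 in edgeR.

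Among the Cyp2a genes, Cyp2a5 alone was called, and it was lower. The gene (chromosome 7, 26835305 to 26843548, plus strand) encodes an enzyme of coumarin and nicotine oxidation. It had 985, 849, 1763 and 751 CPM in PBS and 475, 380, 608 and 361 CPM after rFGF21. PBS 4 was again the highest library, and even the lowest control stood above every treated library. The change was -1.25 ± 0.27 (2.38-fold lower, edgeR adjusted p = 0.0370), kept without PBS 2, 4 or 5 or rFGF21 3 and lost without PBS 1 or rFGF21 1, 2 or 5 (adjusted p up to 0.106). Its close neighbour Cyp2a4, a female-predominant steroid 15-alpha-hydroxylase, had 18.9, 47.5, 34.7 and 2.85 CPM in PBS and 31.9, 16.1, 31.8 and 31.0 CPM after rFGF21. Its PBS libraries spanned the treated ones on both sides (0.09 ± 0.59, adjusted p = 0.953), and the sign turned without PBS 1 (-0.02) or PBS 5 (-0.27).

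Cyp2a5 and Cyp2a4 share 37.0% and 38.0% of their 50-base windows with other genes, and their coding sequences of 1482 bases were 98.4% identical with 23 mismatches. Coding positions 596 to 655 are shown because they hold 4 of the bases that separate the called gene from its uncalled copy. Capitals mark the 4 bases that differ.
Cyp2a5: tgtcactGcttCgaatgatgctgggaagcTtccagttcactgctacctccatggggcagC
Cyp2a4: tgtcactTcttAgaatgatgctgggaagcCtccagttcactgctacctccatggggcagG
Summed with the pseudogene Cyp2a21-ps, these copies fell from 1119 ± 471 to 486 ± 118 CPM (SD, n = 4; -1.20 ± 0.26, edgeR adjusted p = 0.0405), a call lost without PBS 1 or 2 or rFGF21 1, 2 or 5 (adjusted p up to 0.113). Cyp2a21-ps alone did not pass (-1.46 ± 0.54, adjusted p = 0.172), though its groups did not overlap. The second abundant gene of the subfamily, Cyp2a12, a steroid hydroxylase, had 780, 638, 958 and 726 CPM against 681, 686, 706 and 546 CPM (-0.24 ± 0.14, adjusted p = 0.378), and its copy Cyp2a22 stood at -0.71 ± 0.27 (adjusted p = 0.182). The whole Cyp2a sum, 1916 ± 600 CPM in PBS and 1153 ± 172 CPM after rFGF21, had no overlap between groups but missed the threshold (-0.73 ± 0.20, adjusted p = 0.0781).

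Of the 14 Cyp2c genes, all on chromosome 19 between 38976647 and 44029208, only Cyp2c40 was called. Enzymes of this subfamily oxidise arachidonic acid, retinoids and many drugs. Cyp2c40 (39767071 to 39812814, minus strand) had 25.0, 19.2, 40.5 and 27.1 CPM in PBS and 12, 11.2, 16.7 and 13.5 CPM after rFGF21, with no overlap. The change was -1.07 ± 0.21 (2.10-fold lower, edgeR adjusted p = 0.0278), and the call was lost without PBS 1 or 5 or rFGF21 1, 2 or 5 (adjusted p up to 0.0971). With 60.3% of its windows found in other genes it was the called member with the largest shared part. Its coding sequence was 92.2% to 92.6% identical to those of Cyp2c67, Cyp2c68 and Cyp2c69, and the sum of these 4 genes, in which Cyp2c67 dominates, fell short of a call (603 ± 92.2 CPM in PBS, 417 ± 71.1 CPM after rFGF21; -0.53 ± 0.15, adjusted p = 0.0934). Cyp2c67 itself had 530, 390, 540 and 568 CPM against 360, 445, 330 and 286 CPM (-0.51 ± 0.16, adjusted p = 0.115).

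Cyp2c70, which makes the muricholic acids of mouse bile, was near its control level, with 498, 544, 630 and 447 CPM in PBS against 580, 579, 560 and 433 CPM after rFGF21. The change was 0.02 ± 0.14 (edgeR adjusted p = 0.953). Cyp2c29, a CAR-inducible gene, had 115, 142, 169 and 138 CPM in PBS and 51.1, 151, 132 and 87.2 CPM after rFGF21 (-0.42 ± 0.28, adjusted p = 0.450), and Cyp2c23, an arachidonic acid epoxygenase, stood at -0.35 ± 0.19 (adjusted p = 0.354). The other members lay between -0.49 (Cyp2c68) and 0.93 (Cyp2c52-ps, with 0.131 RPKM in PBS and 0.264 RPKM after rFGF21). The Cyp2c sum was 1930 ± 317 CPM in PBS and 1588 ± 214 CPM after rFGF21 (-0.28 ± 0.14, adjusted p = 0.311).

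None of the 12 Cyp2d genes was called by edgeR; DESeq2 called Cyp2d9 and Cyp2d22 lower. Cyp2d9 had 1231, 1083, 957 and 1366 CPM in PBS and 920, 694, 858 and 905 CPM after rFGF21, each treated library below each control (-0.46 ± 0.14, edgeR adjusted p = 0.107). Cyp2d22, often taken as the mouse counterpart of human CYP2D6, had 459, 387, 540 and 461 CPM against 387, 355, 367 and 331 CPM (-0.36 ± 0.11, adjusted p = 0.126). Cyp2d10 stood at -0.19 ± 0.11 (adjusted p = 0.377) and Cyp2d26 at 0.07 ± 0.14 (adjusted p = 0.838), so 2 of the 4 most abundant genes of the subfamily lay within 0.2 of no change. Cyp2d11, which shares 37.2% of its windows, had 2.93 to 9.05 CPM in PBS and 15.1, 2.55, 13.5 and 20.7 CPM after rFGF21 (1.36 ± 0.54, adjusted p = 0.207). Summed with Cyp2d10, the copy it shares windows with, it gave -0.17 ± 0.11 (adjusted p = 0.437). The Cyp2d sum was 2731 ± 249 CPM in PBS and 2249 ± 126 CPM after rFGF21, with no overlap (-0.28 ± 0.10, adjusted p = 0.167).

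Cyp2e1, a pericentral gene and the second most abundant member, was lower without passing the test. Its CPM was 1999, 1508, 2756 and 2425 in PBS and 1362, 1069, 1276 and 1710 after rFGF21. Only rFGF21 5 reached into the range of the controls. The change was -0.68 ± 0.19 (1.60-fold lower, edgeR adjusted p = 0.0956); it was called without PBS 2 (adjusted p = 0.0493) and by DESeq2. Cyp2f2, a periportal gene, had 832, 700, 931 and 915 CPM in PBS and 652, 764, 588 and 311 CPM after rFGF21 (-0.55 ± 0.23, adjusted p = 0.229), with rFGF21 5 far below the rest. Cyp2j5, an arachidonic acid epoxygenase, had 288, 317, 405 and 312 CPM against 260, 318, 298 and 237 CPM (-0.25 ± 0.13, adjusted p = 0.347). Cyp2r1, the main vitamin D 25-hydroxylase, was scarce, at 6.53 to 8.66 CPM in PBS and 5.28 to 6.26 CPM after rFGF21, with no overlap (-0.41 ± 0.14, adjusted p = 0.145).

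The remaining family 2 genes were scarce. Cyp2u1 had 18.5 to 26.8 CPM in PBS and 16.3 to 24.7 CPM after rFGF21 (-0.16 ± 0.15, edgeR adjusted p = 0.610). Cyp2g1, an olfactory enzyme, had 1.51 to 3.92 CPM against 0.240 to 1.56 CPM (-1.20 ± 0.48, adjusted p = 0.213), and Cyp2s1, a gene of epithelia outside the liver, 1.08 to 1.88 CPM against 0.835 to 1.92 CPM (0.13 ± 0.31, adjusted p = 0.874). Cyp2t4 had 14, 10, 12 and 19 reads in PBS and 0, 9, 4 and 0 reads after rFGF21 (-2.18 ± 0.94, adjusted p = 0.243). It is the row just inside the read minimum; just outside, with 3 libraries of at least 10 reads, were Cyp2b13, Cyp2j8, Cyp3a16 and Cyp4f39. The 17 rows outside had at most 30 reads in any library, except Cyp3a16.

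Cyp2b10, the standard readout of CAR activity, was the member whose treated libraries all lay above its controls. It had 1.48, 1.54, 1.71 and 0.568 CPM in PBS and 1.76, 3.47, 6.12 and 2.49 CPM after rFGF21. The lowest treated library exceeded the highest control by little, and the treated libraries differed more than 3-fold among themselves. The change was 1.39 ± 0.43 (2.61-fold higher, edgeR adjusted p = 0.114), not called with any library left out, but called by DESeq2. Its level was low, at 0.61 RPKM in PBS and 1.67 RPKM after rFGF21. Cyp2b9, female-predominant, had between 0.0852 and 2.22 CPM in PBS and between 0.110 and 1.60 CPM after rFGF21 (-0.23 ± 0.99, adjusted p = 0.930), and the Cyp2b sum was not called (0.97 ± 0.46, adjusted p = 0.288).

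**Figure D4:**
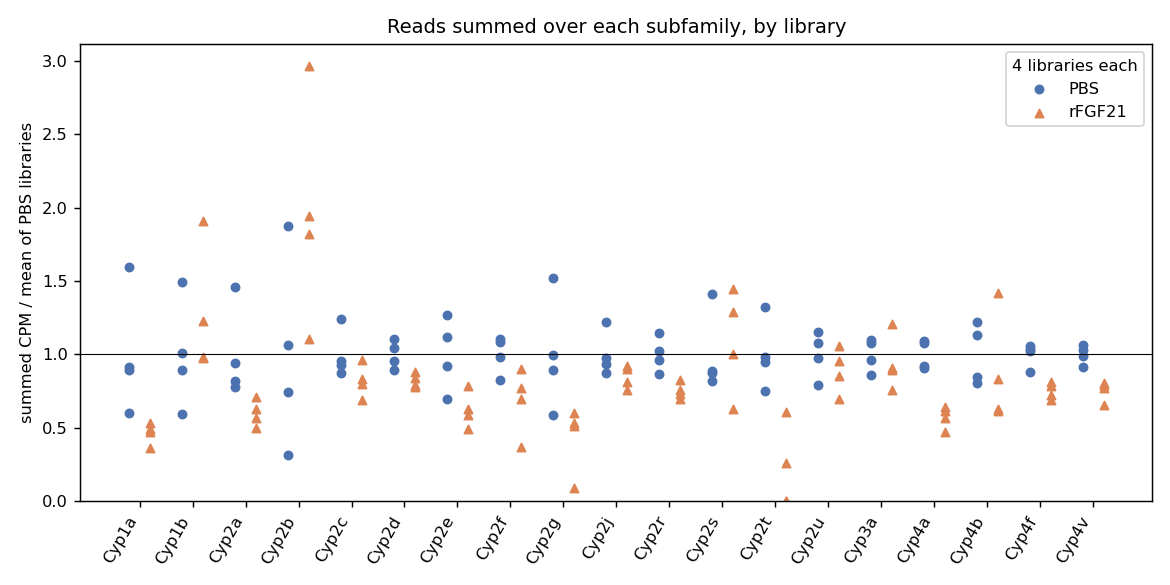
CPM summed over the members of each of the 19 P450 subfamilies, divided by the mean of the PBS libraries, with 1 point per library (PBS circles, rFGF21 triangles; the line marks 1). The sums of Cyp1a, Cyp2a, Cyp2d, Cyp2r, Cyp2t, Cyp4a, Cyp4f and Cyp4v have no overlap between groups, of which Cyp1a and Cyp4a passed the test. Cyp2t is Cyp2t4 alone, which reached the read minimum in PBS libraries only and so had to be lower. Of all tested genes, 6.39% were lower without overlap.

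The Cyp3a subfamily, the most abundant in reads, was not called as a whole, with a sum of 7181 ± 799 CPM in PBS and 6755 ± 1354 CPM after rFGF21 (SD, n = 4; -0.09 ± 0.15, edgeR adjusted p = 0.804). Cyp3a11, which makes up most of it, had 7364, 5764, 6573 and 7392 CPM against 4951, 8111, 5977 and 5865 CPM (-0.12 ± 0.15, adjusted p = 0.730), the highest and the lowest library both being treated. Cyp3a25 had 289, 326, 268 and 409 CPM in PBS and 374, 369, 383 and 431 CPM after rFGF21 (0.27 ± 0.14, adjusted p = 0.318), and Cyp3a59, with which it shares windows, stood at 0.35 ± 0.23 (adjusted p = 0.450). Cyp3a13, found on chromosome 5 apart from the main cluster and with no 50-base window shared with another gene, had 33.4, 32.6, 43.7 and 41.6 CPM in PBS and 57.1, 57.5, 54.4 and 42.4 CPM after rFGF21. Of the treated libraries, rFGF21 5 alone lay within the control range. The change of 0.48 ± 0.13 (1.40-fold higher) missed the threshold (adjusted p = 0.0792). It was called higher with total-count scaling, by DESeq2 and by limma on RPKM.

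The largest positive fold changes of all members, none of them called, were in the copies Cyp3a41a, Cyp3a44 and Cyp3a41b and rest on 2 libraries. These genes are known as female-predominant or fetal Cyp3a forms and are scarce in male liver. Cyp3a41a had 35, 15, 0 and 21 reads in PBS and 0, 4146, 19 and 25 reads after rFGF21 (log2 fold change 5.78 ± 2.00, edgeR adjusted p = 0.150), and without rFGF21 2 the change was -0.40. Cyp3a41b had 275, 194, 70 and 260 reads in PBS and 147, 0, 2730 and 220 reads after rFGF21 (1.82 ± 1.21, adjusted p = 0.456), and without rFGF21 3 it was -0.88. So 1 library took its reads in the first copy and the other in the second, with 0 and 19 reads in the respective other copy.

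The coding sequences of Cyp3a41a and Cyp3a41b differ at 2 of 1512 positions (99.9% identity), and 98.6% and 93.5% of their 50-base windows occur in another gene, so the split between them carries little information. Their sum, 4.40, 3.29, 1.20 and 4.09 CPM in PBS and 1.96, 58.5, 37.6 and 3.24 CPM after rFGF21, still set rFGF21 2 and rFGF21 3 apart from the other 6 libraries (2.96 ± 0.93, adjusted p = 0.12). Cyp3a44, with 238, 349, 0 and 101 reads in PBS and 196, 685, 2925 and 0 after rFGF21 (2.34 ± 1.37, adjusted p = 0.394), was highest in the same pair of libraries. Cyp3a16, below the read minimum, had 290, 0, 0 and 0 reads in PBS and 0, 2990, 0 and 1056 after rFGF21. Over all 4 genes the reads summed to 838, 558, 70 and 382 in PBS and 343, 7821, 5674 and 1301 after rFGF21. By Dixon's test neither library stood apart in Cyp3a11, and none of the 3 members was called.

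**Figure D5:**
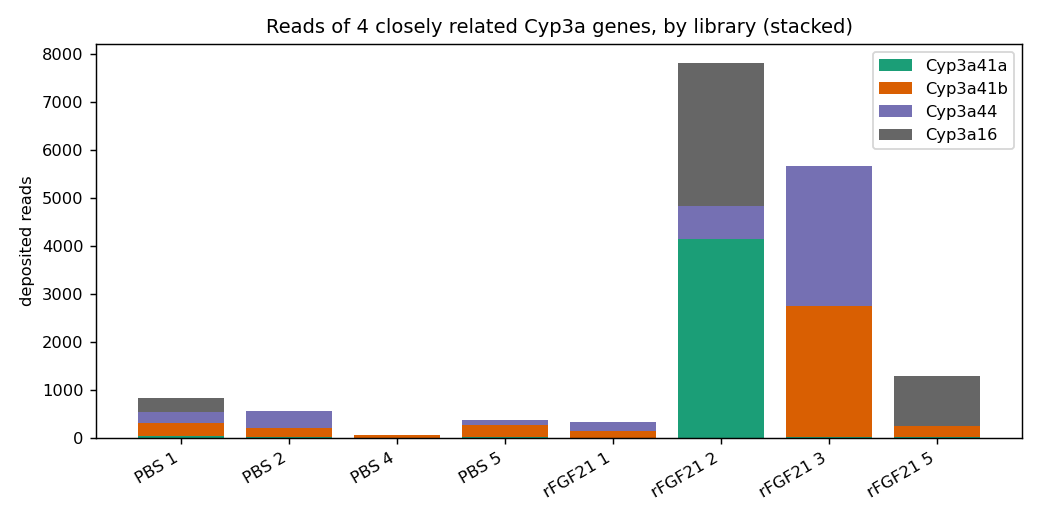
Deposited reads of Cyp3a41a, Cyp3a41b, Cyp3a44 and Cyp3a16, stacked, in each of the 8 libraries. Between 70 and 1301 reads were counted in 6 libraries, and 7821 and 5674 in rFGF21 2 and rFGF21 3, which divide them among different copies.

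Copies that cannot be separated bear on many of the members. At least 20% of 50-base windows were shared with another gene in 25 of the 70 members, of which 4 were called lower (16.0%), and under 5% in 30 members, of which 2 were called lower (6.67%): Cyp4f15 and Cyp1a2. Of all tested genes, 1.67% were called lower. The 4 include both Cyp4a12a and Cyp4a12b, whose reads cannot be fully separated, so they are not 4 independent calls. Of the 4 called members with copies, the copy sums of Cyp4a12a with Cyp4a12b and of the Cyp2a5 group were called too, and that of the Cyp2c40 group was not.

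Por, on which all microsomal P450 enzymes depend, was not called: 380, 343, 607 and 574 CPM in PBS and 397, 460, 445 and 366 CPM after rFGF21 (-0.19 ± 0.18, edgeR adjusted p = 0.630). The treated libraries lay inside the range of the controls. Of the 6 electron partners and haem chaperones (Por included), Cyb5b, the outer mitochondrial cytochrome b5, was called lower (-0.53 ± 0.12, adjusted p = 0.0491, lost with each of the 8 libraries left out in turn, adjusted p 0.0518 to 0.138), and Cyb5a, the microsomal form that serves P450 enzymes, stood at -0.16 ± 0.11 (adjusted p = 0.457).

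Haem is the cofactor of every P450 enzyme, and of 10 genes of its synthesis none was called higher, while those called lower included Alas1 and Cpox. Alas1, the rate-limiting enzyme of haem synthesis in liver, had 555, 520, 863 and 739 CPM in PBS and 264, 355, 207 and 155 CPM after rFGF21, with no overlap. It fell 2.73-fold (-1.45 ± 0.25, edgeR adjusted p = 0.0162), a larger fold than that of any called P450 gene, and of the 8 libraries left out in turn only rFGF21 1 ended the call (adjusted p = 0.0581). Cpox fell as well (-0.72 ± 0.15, adjusted p = 0.0342, lost without PBS 2, 4 or 5 or rFGF21 1, 2 or 3, adjusted p up to 0.107). Alas2, the erythroid form, was not called (0.04 ± 0.16, adjusted p = 0.932). Summed over the 10 genes, the level was 1180 to 1610 CPM in PBS and 683 to 847 CPM after rFGF21. None of 4 haem breakdown genes was called by edgeR, with 1 lower at an unadjusted p under 0.05 (9.86% of all tested genes). Hmox1, the inducible haem oxygenase, stood at 0.11 ± 0.13 (adjusted p = 0.712).

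Of 11 genes of the receptors that induce P450 genes and their partners, 1 was called lower and none higher. Nr1i3 (CAR) had 185, 123, 211 and 156 CPM in PBS and 65.2, 69.9, 75.2 and 52.3 CPM after rFGF21, with no overlap (-1.36 ± 0.17; 2.57-fold lower, edgeR adjusted p = 0.00552), and kept the call with each library left out in turn (adjusted p 0.00746 to 0.0258). Nr1i2 (PXR) had 81.9 to 109 CPM against 89.3 to 105 CPM (0.12 ± 0.11, adjusted p = 0.585), and Ppara 24.1 to 37.2 CPM against 30 to 34.3 CPM (-0.06 ± 0.13, adjusted p = 0.865), with a sign that turns under total-count scaling (0.03). Among 14 other target genes of CAR and PXR none was called by edgeR, with 1 higher and 4 lower at an unadjusted p under 0.05, and the median was -0.20. Among 12 other Ppara targets 1 was called, Cpt2, the mitochondrial carnitine palmitoyltransferase (-0.60 ± 0.09, adjusted p = 0.00876, kept with each library left out). Of the 12, 9 were lower at an unadjusted p under 0.05 in edgeR, and the median was -0.39. At that threshold 9.86% of all tested genes were lower and 8.92% higher.

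Of 19 hepatocyte and clock transcription factors known to act on P450 genes, 1 was called higher, and those called lower included Nr1h4. Nr0b2 (SHP), a repressor without a DNA-binding domain, rose from 5.57 ± 2.26 to 24.9 ± 6.05 CPM (SD, n = 4; 2.17 ± 0.28, edgeR adjusted p = 0.00606), a call kept with each library left out in turn. Nr1h4 (FXR), the bile acid receptor, was called lower (-0.60 ± 0.11, adjusted p = 0.0227, lost without PBS 1 or any rFGF21 library, adjusted p up to 0.0653). Hnf4a was not called (0.12 ± 0.12, adjusted p = 0.623). Of 12 growth hormone and sex-bias genes, Ghr, the growth hormone receptor (-0.60 ± 0.13, adjusted p = 0.0446), and Igfals, the acid-labile subunit that binds IGF1 in plasma (-0.70 ± 0.14, adjusted p = 0.0327), were called lower. Ghr lost its call with each library left out in turn (adjusted p 0.0564 to 0.101), and Igfals lost it without PBS 1, 4 or 5 or rFGF21 2, 3 or 5 (adjusted p up to 0.0954). The median of these growth hormone and sex-bias genes was -0.29, with a range from -2.44 (Hsd3b5) to 1.24 (Bcl6), neither of them called. Medians of -0.27 for hepatocyte markers and -0.25 for periportal markers lay close to it, so this value was not particular to the list.

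Markers of hepatocyte zones and of other cell types are given beside these changes. Of 12 pericentral markers other than P450 genes, Glul (-0.72 ± 0.12, edgeR adjusted p = 0.0138, lost without rFGF21 1, adjusted p = 0.0581) and Slc1a2 (-1.14 ± 0.21, adjusted p = 0.0205, lost without PBS 1 or rFGF21 1, 2 or 5, adjusted p up to 0.0695) were called lower, 7 were lower at an unadjusted p under 0.05, and their sum was 2600 to 2670 CPM in PBS and 1700 to 2160 CPM after rFGF21. Of 13 periportal markers 1 was called higher, Cdh1 (0.50 ± 0.09, adjusted p = 0.0194, lost without rFGF21 1 or 5, adjusted p up to 0.0755), and the sum was 10200 to 14800 against 7190 to 12000 CPM. At an unadjusted p under 0.05 in edgeR, 1 periportal marker was higher and 2 were lower. For this and the other lists here, the shares over all tested genes at that threshold were 8.92% higher and 9.86% lower. The median log2 fold change was -0.25 for the periportal list and -0.42 for the pericentral list. None of 9 hepatocyte markers was called by edgeR, with 3 lower at an unadjusted p under 0.05, and they summed to 63500 to 81100 CPM in PBS and 58500 to 74100 CPM after rFGF21. None of 7 bile duct cell markers was called, with 5 higher at an unadjusted p under 0.05, and their sum was 170 to 271 against 241 to 378 CPM. Of 16 inflammation genes Ccl2 (1.46 ± 0.23, adjusted p = 0.0106, kept with each library left out), Cxcl1 (1.92 ± 0.35, adjusted p = 0.0202) and Fga (0.67 ± 0.15, adjusted p = 0.0394) were called higher. Cxcl1 lost its call without PBS 1 or 5 or rFGF21 1, 3 or 5 (adjusted p up to 0.0646), and Fga without any library except PBS 4 (adjusted p up to 0.0978). The sum of the list was 21200 to 24100 CPM in PBS and 26100 to 35000 CPM after rFGF21. The part of zones, cell types or inflammation in the lower P450 levels was not tested.

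Marker sums for the rest of the liver overlapped between groups. They were 811 to 1310 against 779 to 1070 CPM for 8 Kupffer cell and macrophage genes, 747 to 1040 against 952 to 1470 CPM for 9 stellate cell and fibroblast genes, 111 to 238 against 112 to 198 CPM for 8 endothelial genes, 10.8 to 11.7 against 10.5 to 14.3 CPM for 9 lymphocyte genes and 11.6 to 19.3 against 14.4 to 29.1 CPM for 8 neutrophil genes. No gene of these 5 lists was called by edgeR. At an unadjusted p under 0.05 in edgeR, 4 stellate cell, 2 neutrophil and 1 lymphocyte genes were higher, and none was lower. Over all tested genes these shares were 8.92% higher and 9.86% lower.

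Promoters are shown for Cyp2a5, for its copy Cyp2a4, which was not called, and for Cyp1a2 and Cyp2c40, the other called family 1 and 2 genes. Each run is the 110 bases before the transcription start given by RefSeq (GRCm38.p6), and capitals mark TATAAA, the TATA box, and CAAAGTCC, a common form of the site of Hnf4a.
Cyp2a5, chr7:26835229-26835338, plus strand: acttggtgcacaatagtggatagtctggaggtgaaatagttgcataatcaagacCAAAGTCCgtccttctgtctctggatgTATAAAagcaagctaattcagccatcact
Cyp2a4, chr7:26307082-26307191, plus strand: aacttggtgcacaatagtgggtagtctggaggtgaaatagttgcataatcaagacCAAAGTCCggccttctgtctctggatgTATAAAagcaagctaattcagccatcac
Cyp1a2, chr9:57683656-57683765, minus strand: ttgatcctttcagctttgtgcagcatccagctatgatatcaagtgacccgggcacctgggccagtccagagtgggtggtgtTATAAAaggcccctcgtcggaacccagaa
Cyp2c40, chr19:39812815-39812924, minus strand: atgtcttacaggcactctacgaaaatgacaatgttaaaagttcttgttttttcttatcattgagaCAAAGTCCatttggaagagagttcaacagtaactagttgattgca
Over 250 bases, the promoters of Cyp2a5 and Cyp2a4 were 97.6% identical, and both hold both motifs at nearly the same place. The change of the uncalled Cyp2a4 had a wide standard error (0.09 ± 0.59), and the part of the promoters was not tested. Cyp1a2 holds only the TATA box here and Cyp2c40 only CAAAGTCC.

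Promoter entries were found for 50 of the 70 members (55 entries), and 6 motifs were searched on both strands of the 250 bases before each start. TATAAA was in 41.8% of the member promoters and in 12.4% of all 32851 promoters. CAAAGTCC was in 20% of them, against 1.2% of all. AGGTCA, the nuclear receptor half-site, was in 23.6%, against 14.0%. GCGTG, the core bound by the Ah receptor, was in 16.4%, against 28.2%, and is not in the Cyp1a2 window. TTCNNNGAA, the STAT palindrome, was in 3.64%, against 7.02%, and TTATGTAA, bound by PAR bZIP clock factors, in 0 of 55, against 0.819% of all. Members with near-identical promoters count more than once in these shares, and a match of letters is a description, not a site in use.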

How the data were processed

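RNA sequencing of 4 PBS and 4 rFGF21 liver samples was deposited as 1 table of whole-number read counts per gene with per-length values beside them, per the file headers. The counts of the 8 libraries that also have such a value were used, and 10 other per-sample columns were not used here. Among the unused columns is a further count column of each group, which has no per-length value beside it. Column numbers differ from sample numbers, so columns were assigned to groups only. Bowtie 0.12.2 and mm8 are named, per the submitters' processing notes, but the coordinates are those of GRCm38: 68 of 70 members match GENCODE M21 exactly. The counter, its strand setting and its handling of shared reads were not stated, which makes near-identical copies uncertain.

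Those counts went into edgeR 4.0.16 (R 4.3.3, filterByExpr, TMM, quasi-likelihood F test, two-sided, no covariates), a script first tested on simulated data. CPM are TMM-scaled, and SE follow from the F statistic. Subfamily sums replaced their members in the table. RPKM and TPM were computed from the counts with exon lengths of GENCODE M21, in place of the authors' values that had been planned. Shared 50-base windows came from GENCODE transcripts. In no pair of libraries of a group was the chi-square per degree of freedom over genes under 51.1, so none is a duplicate. Alternatives were DESeq2 1.42.0, limma 3.58.1 on log2(RPKM + 1) and log2(RPKM + 0.1), other scalings and filters, each library left out, and a block on column numbers.

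Named are all called members, Por, the most abundant member of each subfamily, the 6 largest changes that were not called, members with a library far from its group, up to 3 called genes of each list and 7 set genes. Other members were added after their values were seen. Members and lists were chosen with earlier results of these data known. Some called genes of the lists are not reported here.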

Additional observations from a re-analysis of the deposited data

Results flagged for a closer look

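In 11 of 140 groups of 4 libraries (70 members in 2 groups) 1 library stood apart by Dixon's test of the gap to the nearest library over the range. Chance gives about 1 in 20. PBS 4 was the high library in Cyp2a21-ps (10.2 CPM, the others 4.07 to 5.09), Cyp2c37 (16.1 CPM, the others 6.76 to 8.15) and Cyp2d38-ps (10.7 CPM, the others 3.85 to 4.44). rFGF21 5 was the low library in Cyp2a12 (546 CPM, the others 681 to 706), Cyp2c69 (4.88 CPM, the others 6.45 to 6.74) and Cyp2c70 (433 CPM, the others 560 to 580). PBS 5 was high in Cyp2s1 (1.88 CPM, the others 1.08 to 1.18). Among the other treated libraries, rFGF21 1 was high in Cyp2d12 (18.7 CPM, the others 2.38 to 4.64), rFGF21 2 was low in Cyp2a4 (16.1 CPM, the others 31.0 to 31.9) and high in Cyp3a41a (58.5 CPM, the others 0 to 0.331), and rFGF21 3 was high in Cyp3a41b (37.4 CPM, the others 0 to 2.91). None of these 11 members was called.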

How the results depend on the processing

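The number of called members was 6 in the reported test, under median-of-ratios scaling, under total-count scaling and with a filter of 10 reads in 4 libraries, and 5 by limma on genes with a mean RPKM of at least 1. It was 15 with DESeq2, 1 with no filter, 2 by limma on log2(RPKM + 1), 2 on log2(RPKM + 0.1), and 1 to 7 with 1 library left out. Over all genes, 516 were called in the reported test, 1411 with DESeq2 and 198 with no filter. Limma on log2(RPKM + 1) called 252 genes and on log2(RPKM + 0.1) 238, and edgeR 131 to 486 with 1 library left out. Called subfamily sums (2) became 6 with DESeq2, 1 with total-count scaling, 1 with no filter and 1 to 3 with 1 library left out. Called genes of the 50 in the lists of the P450 system (8) became 13, 4, 4 and 2 to 5. The ratio of summed RPKM (0.82) was 0.873 as TPM and 0.788 to 0.843 with 1 library left out. The limma fits and TPM planned on the authors' per-length values were not run, and those on RPKM were added after the data had been seen.

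The numbers in the column names do not pair the libraries: same-numbered libraries of the 2 groups deviated with correlations of 0.07, -0.04 and -0.10. With those numbers as a replicate block on 6 libraries, 0 members, 0 subfamilies and 0 of the 50 genes in the lists of the P450 system were called, against 3, 1 and 4 in the same 6 libraries without the block. Over all genes 12 were called with the block and 281 without it, so the loss was not particular to the members.

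Of 1414 comparisons of a named gene or sum with an alternative, 1160 kept direction and call, 215 lost the call, 13 gained one and 26 turned direction. All that turned were uncalled. With 1 library left out, log2 changes ran from -0.27 (-0.02 without PBS 1) to 0.56 for Cyp2a4, -0.52 to 0.07 for Cyp2c37, -0.04 to 0.12 for Cyp2c70, -0.64 to 0.10 for Cyp2d38-ps, -0.04 to 0.35 for Cyp2s1 and its sum, -0.40 to 6.30 for Cyp3a41a, -0.88 to 2.24 for Cyp3a41b, -0.18 to 0.0 for Ppara and -0.22 to 0.0 for the Cyp3a sum. On the 6 libraries with and without the block, they were 0.14 and 0.18 for Cyp2c37, 0.12 and 0.18 for Cyp2d38-ps and -1.88 and -1.14 for Cyp3a41b, and with the block -0.92 for Cyp3a44. Cyp3a41b was -0.05 by limma on log2(RPKM + 0.1), and Ppara 0.03 with total-count scaling and 0.04, 0.05 and 0.04 by limma. The causes were not tested. The scarcest member, Cyp2t4, rests on 0 to 19 reads per library.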
